A study of Homo sapiens with 2 samples.

Results

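Half-methylated open sites are accessible regions of the genome in which a middle share of the CpG reads was methylated. They were selected on the methylation values themselves: a peak on an autosome entered if it held at least 30 CpG reads in each of the 2 replicates and if 30% to 70% of those reads were methylated in both. Of 46980 peaks listed, 46884 were autosomal, 31637 of those had enough reads, and 2321 (7.34%) were half-methylated by this rule. Because the rule fixed the mean of each site, that mean is described here and not tested. How methylation was laid out inside a site, where the site lay and how many background reads it held were not used by the rule.

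The data come from 1 group, undifferentiated cells of H9, an established line of human embryonic stem cells grown on Matrigel in mTeSR medium, with no treatment, no genetic change and no control group. ATAC-Me was run on 2 replicates: a transposase inserts sequencing adapters into open chromatin, the fragments are converted so that unmethylated cytosines read as thymines, and each fragment then reports both that a place was open and how it was methylated. Over the autosomes the libraries held 28475863 and 51406146 CpG reads and covered 31.6% and 59.0% of the 27852739 CpGs listed. The labels do not say that the replicates were separate cultures, and their spread may be only technical. Of the marker genes whose start could be placed, 6 of 6 pluripotency genes (NANOG, SOX2, DNMT3B, CRIPTO, ZFP42 and DPPA4) had a peak within 1000 bp of a start, as had 4 of 4 neural, 2 of 4 trophoblast, 0 of 2 endoderm and 0 of 1 fibroblast genes. These are open starts, not expression.

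In mammals DNA methylation is added to the cytosine of CpG pairs by the DNMT3 enzymes and kept through cell division by DNMT1, while TET enzymes oxidise it and lead to its loss. CpG-rich gene starts are mostly free of it, the bulk of the genome carries it, and enhancers in CpG-poor DNA often stand between these states. A middle value can arise in several ways that a mean over a peak cannot separate: CpGs that are always methylated beside CpGs that never are, a gradient from an unmethylated centre to methylated edges, or the same share at all CpGs. The last also covers imprinted loci, where methylation sits on the maternal or the paternal copy. The files give a fraction per CpG and not which CpGs shared a fragment, so whether single molecules were mixed was not measured.

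The stretches printed here show what some such sites look like in sequence at RefSeq gene starts. They hold 3 to 6 CpGs each, except that at DPP9-AS1, which holds 10. Each is the part of a site that lies within 250 bases before a RefSeq gene start (GRCh38.p14), written 5′ to 3′ on the strand of the gene. Capitals mark the CpGs with at least 10 reads in each replicate, and bases are counted from 1 at the left end. TREX1, a DNA exonuclease, has the site with the highest signal at a gene start (chr3:48465580-48465829, + strand), and DPPA2, a gene of pluripotent cells, is shown as a gene of the pluripotency list with a site across its start (chr3:109316518-109316685, − strand). HYAL1, a hyaluronidase, is shown as the site whose replicates lay far apart (chr3:50303575-50303824, − strand). DNMT3B, a de novo methyltransferase, has a site at a start listed inside the gene (chr20:32779602-32779851, + strand). DPP9-AS1, an antisense RNA within DPP9, is shown for its scattered CpGs (chr19:4679032-4679281, + strand). By protein-coding genes its site counts as inside DPP9 and not at a gene start.
TREX1: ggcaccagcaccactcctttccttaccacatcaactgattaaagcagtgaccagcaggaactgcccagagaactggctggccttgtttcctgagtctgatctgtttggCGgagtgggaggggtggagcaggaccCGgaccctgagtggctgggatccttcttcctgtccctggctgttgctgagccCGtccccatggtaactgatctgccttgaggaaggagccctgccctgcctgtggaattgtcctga
DPPA2: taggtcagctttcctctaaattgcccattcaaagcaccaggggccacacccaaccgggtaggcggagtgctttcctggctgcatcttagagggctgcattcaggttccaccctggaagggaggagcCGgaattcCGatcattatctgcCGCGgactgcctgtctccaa
HYAL1: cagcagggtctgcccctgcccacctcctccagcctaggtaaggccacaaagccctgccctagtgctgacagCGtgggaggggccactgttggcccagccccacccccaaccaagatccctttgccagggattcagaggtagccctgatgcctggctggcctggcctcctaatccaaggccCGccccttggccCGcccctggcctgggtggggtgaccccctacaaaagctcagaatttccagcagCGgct
DNMT3B: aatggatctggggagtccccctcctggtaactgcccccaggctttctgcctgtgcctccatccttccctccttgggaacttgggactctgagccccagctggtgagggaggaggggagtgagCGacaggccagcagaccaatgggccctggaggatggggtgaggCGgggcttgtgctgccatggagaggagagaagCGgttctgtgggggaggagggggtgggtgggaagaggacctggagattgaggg
DPP9-AS1: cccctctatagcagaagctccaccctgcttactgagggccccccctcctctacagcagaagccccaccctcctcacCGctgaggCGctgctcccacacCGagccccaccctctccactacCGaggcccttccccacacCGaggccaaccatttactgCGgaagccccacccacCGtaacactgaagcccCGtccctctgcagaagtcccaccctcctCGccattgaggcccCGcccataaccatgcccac

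The half-methylated sites were weak, narrow and poor in CpGs beside the other 29316 peaks with enough reads. Their median peak signal, the peak caller's own value, was 467, against 772 in the other peaks. Their median width was 268 bp, against 382 bp, and they held a median of 6 CpGs, against 20. Per 100 bp that was 2.31 CpGs in half-methylated sites and 5.68 in other peaks. Reads were correspondingly few, with a median of 59 and 66 CpG reads per half-methylated site in replicates 1 and 2, against 215 and 282 per other peak. Reads over several CpGs enter once for each, so fragments were fewer still. Much of this contrast was with unmethylated peaks: the 3348 peaks at 10% to 30% in both replicates had medians of 2.40 CpGs per 100 bp, 282.5 bp and a signal of 558, and the 200 peaks over 70% in both had 2.54 CpGs per 100 bp, 253.5 bp and 397.

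Within the selected range the sites did not gather at the middle. Median methylation over the 2321 sites was 46.3% in replicate 1 and 45.2% in replicate 2, and quartiles ran from 38.3% to 55.3% and from 37.8% to 54.2%. The replicates of 1 site differed by a median of 6.73 percentage points and by up to 33.7 points. The limits cut through a continuous range. Just inside the lower limit lay a peak near ACAP3 at 37.3% and 30% and one near KAZN at 30% and 32.4%, and just outside it lay one near GABRP at 50.6% and 29.94% and one near PRKCQ at 42.9% and 29.91%. Just inside the upper limit lay peaks near CTNNA2 at 60.7% and 70% and near MREG at 66.7% and 70%, and just outside it peaks near LSM7 at 60.2% and 70.06% and near DYNC2I1 at 41.4% and 70.09%. Within 1 point of the lower limit there were 136 sites inside and 118 peaks outside.

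Most of the well-covered single CpGs in these sites were themselves at middle values. Of the 17093 CpGs listed in the sites, 5521 had at least 10 reads in each replicate. Among these, the share between 20% and 80% was 79.7% in replicate 1 and 79.97% in replicate 2, or 79.8% ± 0.218 (SD, n = 2). Under 20% were 15.9% ± 0.871 and over 80% were 4.27% ± 1.09. These shares do not cover the CpGs with fewer reads. In the 456 sites with at least 4 well-covered CpGs, the rest were more methylated, at 55.6% and 55.4% against 42.5% and 41.9%. The share over 80% may thus be too low for whole sites. In the other peaks 1.86% ± 0.0205 of 447935 CpGs stood between 20% and 80% (SD, n = 2). The selection on site means largely sets this contrast, as 423858 of those CpGs lay in peaks under 10%. In peaks at 10% to 30% the share was 27.5% ± 0.838 of 11984 CpGs, and in peaks over 70% it was 43.9% ± 0.601 of 471 CpGs (SD, n = 2). With at least 20 reads per CpG, 81.1% stood between 20% and 80%, 16.9% under 20% and 2.04% over 80%.

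**Figure D1:**
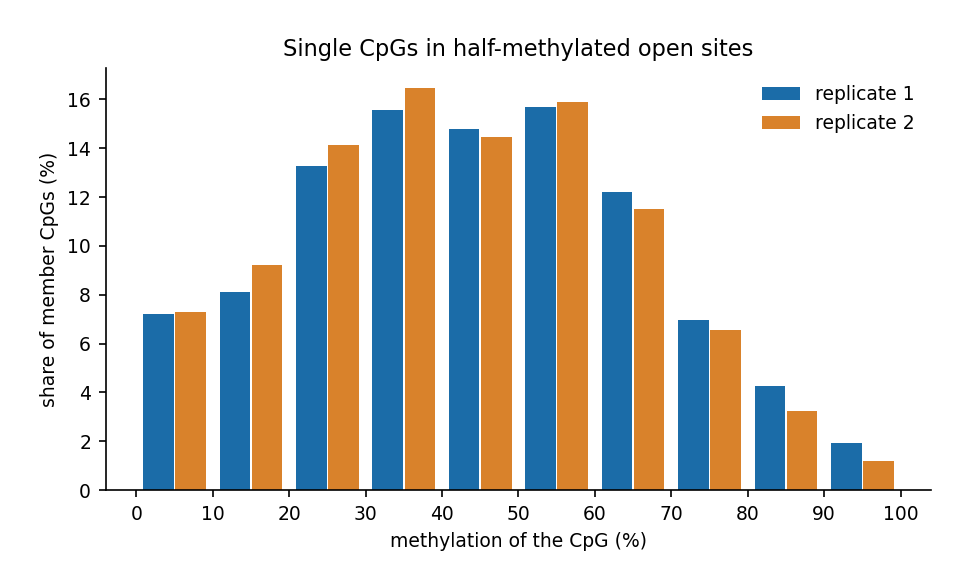
Share of the 5521 CpGs in half-methylated open sites (vertical axis, percent) by their methylation in steps of 10 points (horizontal axis, percent), with at least 10 reads in each replicate; blue bars are replicate 1 and orange bars replicate 2. The bars are highest between 30% and 60%, and the outermost bars are lower, at 7.21% and 7.30% of CpGs under 10% and 1.94% and 1.20% at 90% or more.

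The inside of a site could be resolved only where several CpGs were well covered. At least 4 CpGs with 10 reads or more in each replicate were found in 456 sites (19.6%), 2 or 3 in 994, 1 in 447 and none in 424. Whether the CpGs of a peak differed from each other was tested in those 456 sites and in 1578 other peaks with as many covered CpGs and 10% to 90% methylation in both replicates. A peak is called uneven where its CpGs differed by more than the 2 replicates did at the same CpG. Of the 456 half-methylated sites, 221 (48.5%) were uneven at an adjusted p under 0.05 (limma-moderated F test, Benjamini-Hochberg over all tested peaks), against 753 (47.7%) of the 1578 other peaks. Over all 2034 tested peaks, 47.9% were called, about the share of the half-methylated sites. Before adjustment, 268 of the 456 had p under 0.05.

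The size of the differences between CpGs was moderate. The spread, the standard deviation between CpGs of 1 site that both replicates share and that counting error therefore does not enter, had a median of 14.0 points over the 456 sites, with quartiles of 8.50 and 19.2 points. It was 20 points or more in 103 sites and 30 points or more in 16. The median of the observed range from the lowest to the highest CpG, counting error included, was 40.6 points. Deviations of single CpGs from the mean of their site had a median correlation of 0.717 between replicates, a description over as few as 4 CpGs per site that share a library. The spread was 8.58 points in 1243 peaks at 10% to 30% and 6.38 points in 31 peaks over 70%, where values near the ends of the scale leave less room.

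Among covered CpGs, those with at least 10 reads in each replicate, opposite states in 1 site were rare. Only 12 of the 456 sites (2.63%) held both a covered CpG under 20% and a covered CpG over 80% in both replicates. The other CpGs of these sites did not enter the count. They were more methylated, at 55.6% and 55.4% together, against 42.5% and 41.9% for the covered ones, so the count may be too low for whole sites. In 103 (22.6%) every covered CpG was at 20% to 80% in both. With the peak's own error in place of the moderated one, 106 of the 456 sites (23.2%) were uneven, against 20.2% of all tested peaks. With at least 6 CpGs per peak, 123 of 181 sites (68.0%) were uneven, against 67.0% of all tested peaks. With at least 20 reads per CpG, 38 of 52 sites (73.1%) were uneven, against 59.4% of all tested peaks. With peaks of any level tested, as first planned, 116 of the 456 sites (25.4%) were uneven, against 9.67% of 19695 tested peaks, which then include those under 10% and over 90%. How often a site is called uneven, and how that compares with other peaks, thus rests on these choices.

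The 456 sites were sorted into 4 shapes. A site was even where its spread was under 10 points. It had a summit gradient where distance from the peak summit accounted for an r2 of at least 0.5 of the variation between CpGs in both replicates with the same sign, a one-sided gradient where position along the chromosome did so instead, and it was scattered otherwise. Scattered sites were the most numerous, 215 (47.1%), followed by 144 even sites (31.6%), 68 with a summit gradient (14.9%) and 29 with a one-sided gradient (6.36%). Of these, 147 scattered, 1 even, 51 summit gradient and 22 one-sided sites were called uneven by the limma-moderated F test. Among the 68 with a summit gradient, 43 had higher methylation away from the summit and 25 lower. The slopes were steep in short peaks: a median of 32.8 and 33.1 points per 100 bp in replicates 1 and 2 for summit gradients, and 59.8 and 58.0 points for one-sided ones. Both gradient classes rested on a median of 4 covered CpGs, through which a line passes easily. Among sites with at least 6 CpGs the shares were 12.2% and 3.87%. The even class holds 55.5% of sites if its limit is set at 15 points.

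Even sites had similar shares of methylation at the CpGs that could be resolved, which are not all CpGs of the site. In the 144 even sites the 813 covered CpGs were at 42.4% and 43.2% together, and the 798 CpGs with fewer reads in a replicate at 54.0% and 54.3%. Over all 456 sites the covered CpGs were at 42.5% and 41.9% and the rest at 55.6% and 55.4%, so the shapes describe the well-covered part of a site. The site with the most reads among them lies within CHST15, a sulfotransferase that acts on chondroitin sulfate (chr10:124010819-124011263), with 562 and 854 CpG reads and 39.3% and 30.2% methylation (95% Wilson intervals for counting error alone, 35.4% to 43.4% and 27.2% to 33.4%). Its 14 covered CpGs had a shared spread of 4.07 points, and the F test gave an adjusted p of 0.245 by limma. At the CpG 1 bp from the summit it stood at 28.3% in both replicates, with 60 and 92 reads. Other CpGs agreed less between replicates. The CpG 47 bp before the summit was at 49.1% and 26.9%, and that 119 bp past it at 73.7% and 32.3%. In PACSIN1, an adaptor of endocytosis (chr6:34531678-34532381), 18 CpGs had a spread of 6.90 points about 31.1% and 38.3%. An intergenic site whose nearest listed start is that of IZUMO1R (chr11:94237709-94238518) stood at 51.5% and 54.9% over 509 and 789 reads, with a spread of 7.14 points over 10 covered CpGs and background shares of 2.42% and 2.95%. It was even only in that part: the 10 covered CpGs were at 42.1% and 38.9% together, and the other 19, farther past the summit, at 87.6% and 83.9%.

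Gradients took different forms. In ABCA7, a lipid transporter, lies the site with the highest signal of all (chr19:1062262-1063503, signal 4163). It stood at 43.7% and 43.1% over 435 and 1207 reads, and its 20 covered CpGs had a spread of 21.6 points (adjusted p = 6.86e-09, limma-moderated F test). The CpG 12 bp past the summit was at 86.4% and 86.6%, while the CpG 737 bp before it was at 9.09% and 0%. Past the summit values stayed high, with 65.7% and 66.7% at the CpG 162 bp past it. Distance from the summit gave an r2 of 0.761 and 0.689, and position along the chromosome gave 0.713 and 0.628, so the layout was nearly as well described as one-sided. In TREX1 the summit was the low place. The 3 CpGs within 50 bp of its summit, printed in capitals at bases 109, 135 and 187, were at 27.6% and 20%, at 15.2% and 3.64%, and at 28.6% and 13.3% in replicates 1 and 2. The CpG 212 bp before the summit was at 70% and 83.3%. The whole site read 46.7% and 42.4% (adjusted p = 0.000413, limma-moderated F test).

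One-sided and scattered sites changed over short distances. In CHST2, another sulfotransferase (chr3:143121329-143121649, 38.7% and 37.9%), the CpG 24 bp before the summit was at 0% and 8.33%, and the CpG 27 bp past it at 81.0% and 71.4% (adjusted p = 0.000413 over 10 CpGs, limma-moderated F test). In TECR, an enzyme of very long chain fatty acid synthesis (chr19:14564149-14564736, 41.3% and 34.1% over 674 and 1068 reads), the CpG 54 bp before the summit was at 16.7% and 5.26%, while that 4 bp before it was at 52.9% and 54.3%. RYR1, the calcium release channel of skeletal muscle, held a site at 47.1% and 46.4% with a smaller spread of 10.6 points over 20 CpGs (adjusted p = 0.00249, limma-moderated F test). In the stretch at DPP9-AS1, the CpG at base 85 was at 21.1% and 26.8%, that at base 99 at 51.4% and 48.2%, that at base 174 at 73.1% and 53.2%, and that at base 232 at 25% and 7.81%. On the mean of the replicates the 10 CpGs were highest at bases 158 and 174 and lowest at the 3′ end.

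**Figure D2:**
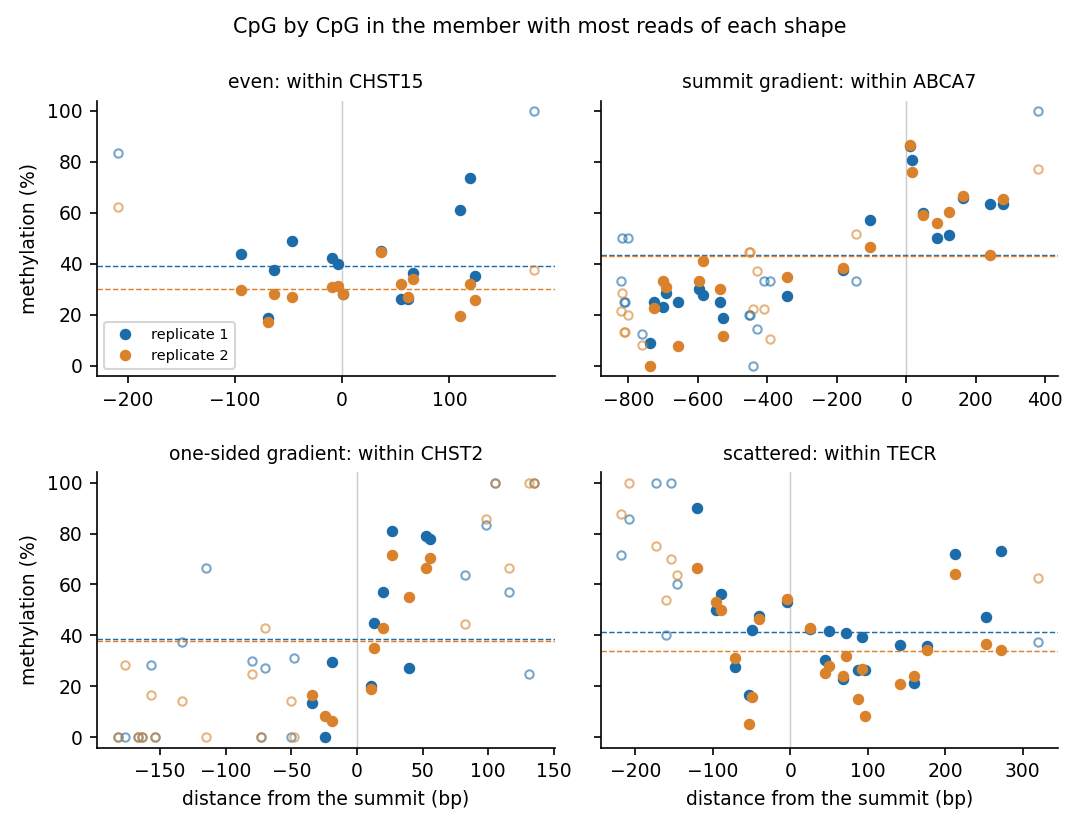
Methylation of single CpGs (vertical axis, percent) by distance from the peak summit (horizontal axis, bp) in the half-methylated site with the most reads in its shallower replicate for each shape; blue is replicate 1, orange replicate 2, filled points have at least 10 reads in both replicates and open points fewer, and dashed lines are the site means. Points lie along the mean in CHST15. In ABCA7 they step up towards the summit and stay high past it. They climb in one direction in CHST2 and move up and down in TECR, where the CpG 54 bp before the summit is at 16.7% and 5.26%.

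Neighbouring CpGs were more alike than distant ones. Over all 1450 sites with 2 or more covered CpGs, adjacent covered CpGs 2 to 20 bp apart differed by a shared root mean square of 16.5 points. This rests on 1796 pairs. The difference was 23.4 points at 21 to 50 bp (1161 pairs), 26.6 points at 51 to 100 bp (492 pairs) and 27.0 points at 101 to 660 bp (175 pairs). CpGs a few bases apart are mostly read on the same fragments, which were not told apart in the tables.

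In reads pooled over sites, methylation was lower at the summit than at the edges. In the 1445 sites with reads in both places, CpGs more than 100 bp from the summit and still inside the peak were at 54.9% and 54.3% in replicates 1 and 2, against 41.4% and 40.9% for CpGs within 50 bp of it. The pooled difference was 13.5 ± 0.0436 points (SD, n = 2). Sites with more reads weigh more in it. The SD is between 2 totals over the same sites, so it does not show how far single sites differ. With 2 replicates the smallest two-sided p of an exact sign-flip permutation test is 0.5, so no test was made. The pooled difference was 13.8 ± 0.360 points in peaks at 10% to 30%, 1.79 ± 0.813 points in peaks over 70% and 0.463 ± 0.0168 points in peaks under 10% (SD, n = 2). By shape it was 11.7 ± 1.69 points in even sites and 11.2 ± 0.164 in scattered ones, 15.9 ± 0.418 with a summit gradient and 17.5 ± 4.12 with a one-sided gradient (SD, n = 2). The pooled value hides sites, such as that in ABCA7, where CpGs near the summit were higher than those far before it. On covered CpGs, methylation rose with distance from the summit in both replicates in 42 of 144 even and 109 of 215 scattered sites. It did so in 43 of the 68 sites with a summit gradient and in 17 of the 29 one-sided ones. A rise from summit to edge was thus not general among the resolved sites.

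Coverage changed along the site as well. In half-methylated sites the reads per CpG more than 100 bp from the summit were 7.21 and 9.12, against 13.9 and 17.3 within 50 bp. Background reads, estimated from the coverage of CpGs 2000 to 10000 bp away and outside peaks, would make up 9.41% and 18.4% of reads beyond 100 bp, against 4.71% and 9.29% within 50 bp. With them taken off, the values were 52.9% and 48.9% beyond 100 bp, against 39.8% and 37.0% within 50 bp. The difference was then 12.5 ± 0.855 points (SD, n = 2), so it was nearly as large without the estimated background.

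Methylation was higher outside the sites than at their summits. It was 42.5% ± 0.560 within 50 bp of the summit, 63.6% ± 0.421 at 150 to 200 bp, 78.7% ± 1.48 at 450 to 500 bp and 72.0% ± 3.61 at 950 to 1000 bp (SD, n = 2). In the first 200 bp beyond the peak edges it was 73.3% ± 0.935 at half-methylated sites, 84.1% ± 2.27 at peaks over 70%, 53.9% ± 1.87 at peaks at 10% to 30% and 7.37% ± 0.510 at peaks under 10% (SD, n = 2). Close to the edge the surroundings of half-methylated sites were thus methylated, unlike those of unmethylated peaks. Farther out, at 2000 to 10000 bp, both were methylated. Medians there were 81.5% and 85.2% at half-methylated sites and 78.8% and 83.8% at peaks under 10%, in replicates 1 and 2.

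**Figure D3:**
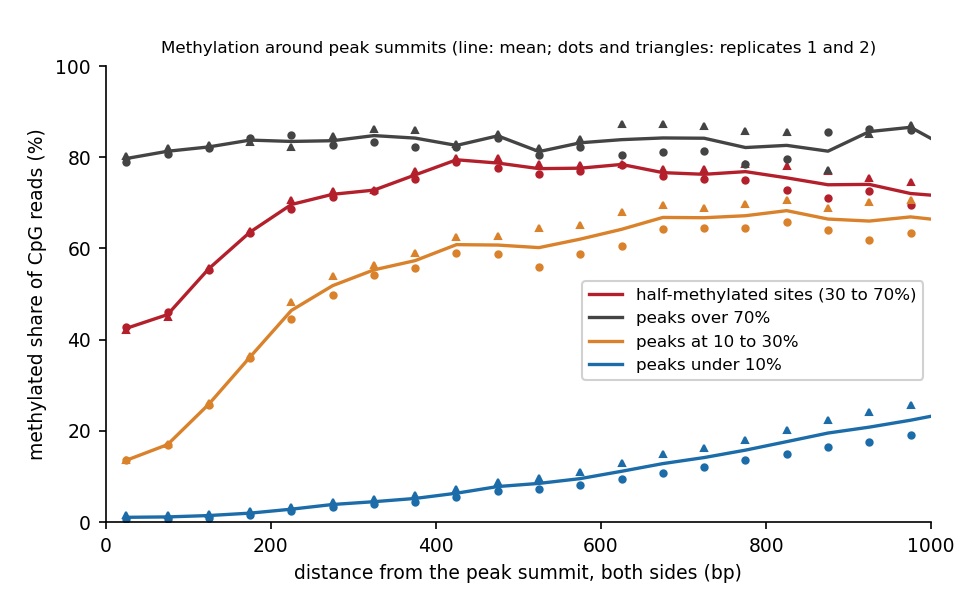
Methylated share of CpG reads (vertical axis, percent) by distance from the peak summit on both sides (horizontal axis, bp in steps of 50) for half-methylated sites (red), peaks over 70% (grey), peaks at 10% to 30% (orange) and peaks under 10% (blue), all limits in both replicates; lines are means, dots replicate 1 and triangles replicate 2. The red line climbs from 42.5% at the summit to 78.7% at 450 to 500 bp. The level at the summit is set by the selection of the groups.

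Background reads were a small share of the reads of most sites. They made up a median of 5.26% and 11.6% of the CpG reads of a half-methylated site in replicates 1 and 2 (mean 8.42% ± 4.46, SD, n = 2), against 4.37% and 9.17% in the other peaks. CpGs 2000 to 10000 bp away were at a median of 81.5% and 85.2% methylation. An otherwise unmethylated site with this background would read 3.87% and 9.32%. Background alone would reach 30% in both replicates at none of the 2321 sites and in at least 1 replicate at 9.

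With the estimated background taken off, median methylation was 44.7% and 40.3%, against 46.3% and 45.2% with it left in. After this 1729 sites (74.5%) were still at 30% to 70% in both replicates. Under 30% in at least 1 replicate were 544, and under 10% in both were none. A background share under 10% in both replicates was found in 903 sites, and in the 520 of these with reads in both places the difference between edge and summit was 13.2 ± 0.462 points (SD, n = 2). The estimate assumes that background falls on a peak as on the DNA around it. It took more than was there at unmethylated peaks, where values with it taken off came out below 0, at −1.49% and −2.55% within 50 bp of the summit. With the background share multiplied by 2, the median of the sites was 38.8%, and 1226 sites were still at 30% to 70%.

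Half-methylated sites lay away from gene starts. Of the 2289 sites that could be placed, 78 (3.41%) lay within 1000 bp of the start of a protein-coding gene, 1136 (49.6%) inside a gene and 1075 (47.0%) between genes. The other peaks stood at 40.7%, 27.4% and 31.9% for these classes. Peaks at 10% to 30% resembled the half-methylated sites, with 5.40% at gene starts, 48.5% inside genes and 46.1% between them, and peaks under 10% did not, with 53.9%, 20.2% and 25.9%. The median distance to the nearest listed start was 50645 bp, against 6037 bp in the other peaks. Among peaks away from starts it was 54946 bp for half-methylated sites and 38845 bp for the others. There it was 45932 bp for peaks at 10% to 30% and 67109 bp for peaks over 70%, so the half-methylated sites lay between these. Counting all annotated genes, noncoding ones included, put 5.78% of the sites at a start, and a distance of 2000 bp put 5.39% there. Peaks are not replicates, so these shares are set side by side without a test.

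**Figure D4:**
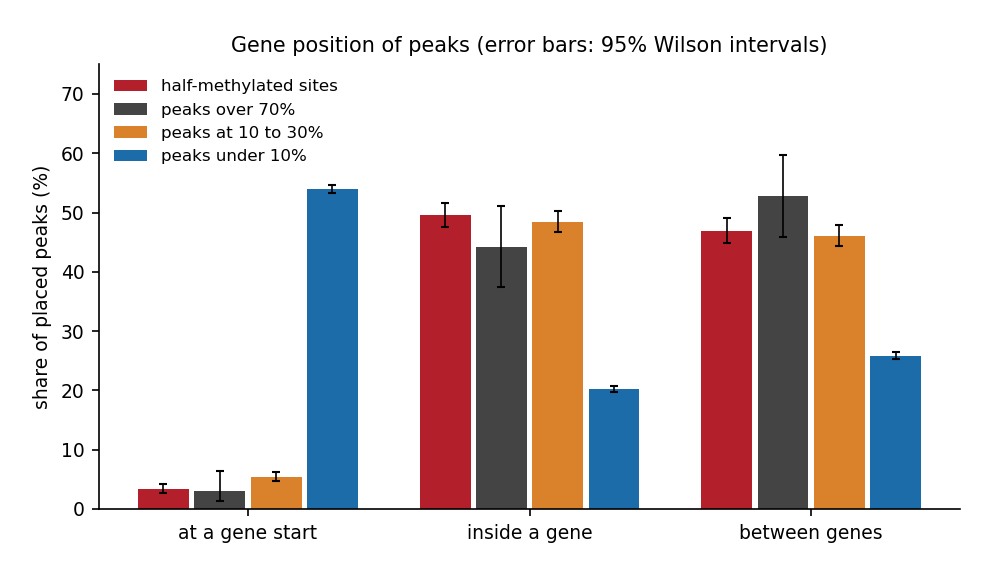
Share of placed peaks (vertical axis, percent) at a gene start, inside a gene and between genes for half-methylated sites (red), peaks over 70% (grey), peaks at 10% to 30% (orange) and peaks under 10% (blue); error bars are 95% Wilson intervals. At gene starts lie 3.41% of half-methylated sites and 53.9% of peaks under 10%.

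The few sites at gene starts were not CpG-rich starts. The 78 had a median of 2.61 CpGs per 100 bp, against 8.73 in the 11062 other peaks at gene starts, a width of 289 bp, against 503 bp, and a signal of 531, against 1129. The start itself lay inside the peak in 41. In 20 of the 78 the CpGs could be resolved, and 10 of those were uneven by the limma-moderated F test, at the background of 47.9%. After the background reads were taken off, 46 stayed between 30% and 70% in both replicates.

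The sites with the highest signal at gene starts, besides TREX1, were those of HYAL1, PHF14, CEND1 and DNMT3B. HYAL1 stood at 63.4% in replicate 1 and 37.6% in replicate 2 over 112 and 149 reads. The CpG at base 72 of its stretch was at 60.7% and 19.05%, that at base 181 at 67.7% and 54.5%, that at base 193 at 52% and 46.2% and that at base 246 at 42.9% and 11.1%. All 4 were higher in replicate 1, and the largest gap was at base 72. PHF14, a chromatin reader with PHD fingers, had a site 479 bp from its start at 48.1% and 51.6% with background shares of 1.48% and 6.13%. CEND1, a regulator of neuronal cell cycle exit, had one at 34% and 39.1%, where background took 33.6% and 20.5% of the reads, and 18.3% and 30.6% were left with it taken off.

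Pluripotency genes held 6 half-methylated sites among the 76 peaks within 5000 bp of the 31 listed genes found on the autosomes, a share of 7.89%, against 7.34% of all peaks with enough reads. They lay at DPPA2, 4 times at DNMT3B, and within NUDT6, a gene that overlaps FGF2, a growth factor used to keep human embryonic stem cells undifferentiated; the last site lies within 5000 bp of FGF2 but outside it. DPPA2 read 54.0% and 65.3% over 313 and 176 reads, and its 10 covered CpGs had a spread of 9.39 points (adjusted p = 0.229, limma-moderated F test). In its printed stretch, the CpG at base 127 was at 69.0% and 81.8%, that at base 135 at 59.4% and 58.3%, that at base 149 at 54.5% and 58.3% and that at base 151 at 42.4% and 16.7%. These are above the middle except the last, which is the nearest to the start and the lowest in both replicates. With background taken off the site was at 53.1% and 62.5%.

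DNMT3B had 3 of its half-methylated sites in a row around the start listed inside the gene and the fourth near its 3′ end. The first (chr20:32778502-32778739) was at 43.6% and 46.1% and scattered, with CpGs 67 and 79 bp past the summit at 7.69% and 20.8% and at 75% and 54.2% (adjusted p = 0.0479, limma-moderated F test). The second, across the listed start (chr20:32779480-32780055), was at 40% and 45.5%. In its printed stretch the CpG at base 123 was at 41.2% and 35.1%, that at base 166 at 52.6% and 46.4% and that at base 198 at 15.4% and 32%. The third (chr20:32780468-32781152) was at 33.6% and 40.6%, with a spread of 2.21 points over the 5 covered CpGs, which lay from 16 bp before to 202 bp past the summit. CpGs farther before the summit had under 10 reads and did not enter that spread. The 7 CpGs of the site that were not covered stood at 55.3% and 66.7% together, against 25.7% and 34.8% for the covered ones. The site near the 3′ end (chr20:32807747-32808052) was at 61.8% and 58.0% and also even, with a spread of 6.36 points over 4 CpGs. Judged on these few covered CpGs, even and scattered calls thus lay within 1 gene.

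**Figure D5:**
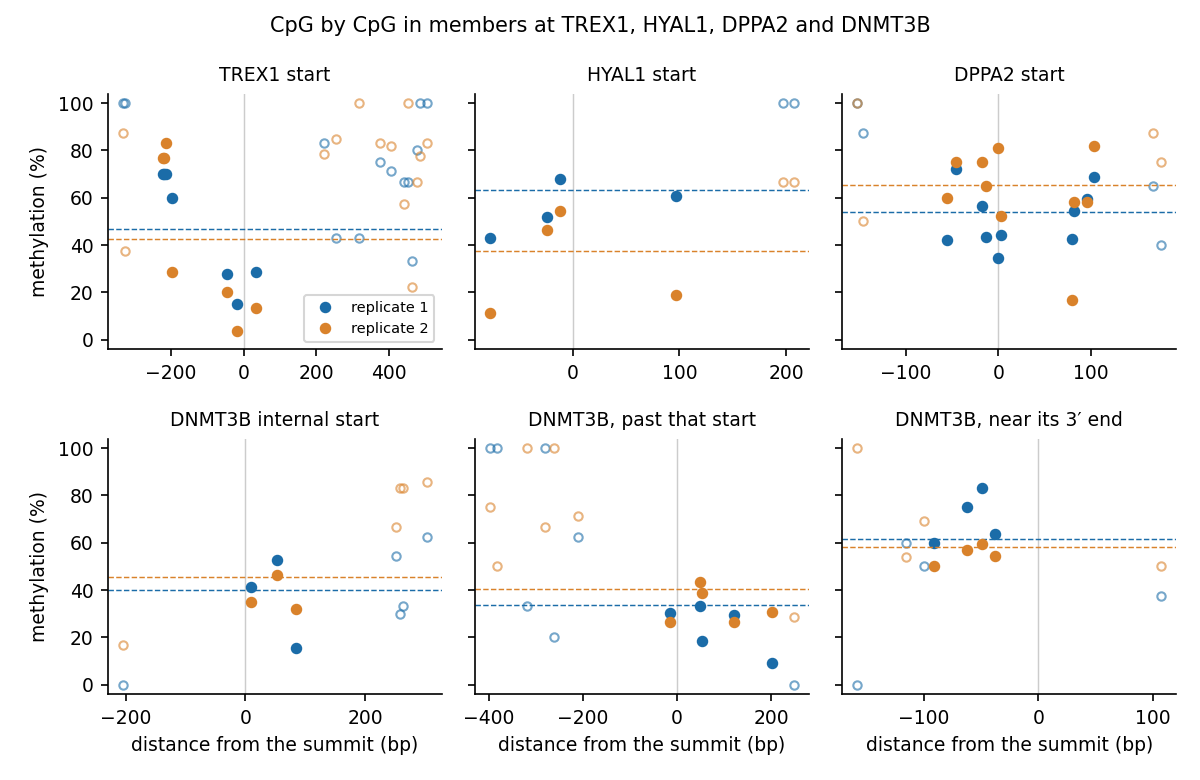
Methylation of single CpGs (vertical axis, percent) by distance from the summit (horizontal axis, bp) in half-methylated sites at the starts of TREX1, HYAL1 and DPPA2 and in 3 of the sites of DNMT3B; blue is replicate 1, orange replicate 2, filled points have at least 10 reads in both replicates and open points fewer, and dashed lines are the site means. The low points at the centre of TREX1 have mostly higher points on both sides, such as 70% and 83.3% at 212 bp before the summit, and in HYAL1 the dashed lines lie apart, at 63.4% and 37.6%.

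Imprinted genes, where middle values over all CpGs would be found at control regions, held 4 half-methylated sites among 83 peaks within 5000 bp of the 58 listed genes found on the autosomes (4.82%, against 7.34% of all peaks with enough reads). These lay within HERC3 (43.9% and 35.1%), WDR27 (64% and 49.2%), GRB10, an adaptor that dampens insulin signalling (39.8% and 47.0%), and SVOPL (37.1% and 40%). None of the 4 had more than 3 CpGs with 10 reads in each replicate, so their layout was not resolved. WDR27 had background shares of 20.7% and 21.2% and SVOPL of 14.1% and 35.2%.

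Genes that write, read or remove DNA methylation held 6 sites among 42 peaks, of which 4 are those of DNMT3B already counted. The other two lay within DNMT3A, the partner enzyme of DNMT3B (49.1% and 52.9%), and across a listed internal start of ZBTB38, a zinc finger protein that binds methylated DNA (32.4% and 37.3%). The site in ZBTB38 was scattered, with a spread of 20.7 points over 5 CpGs (adjusted p = 0.0129, limma-moderated F test). The share of 14.3% rests on 1 gene: without DNMT3B it is 2 sites.

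The remaining lists held few sites. Germline and meiosis genes had 1 among 30 peaks, within SYCP1, a protein of the synaptonemal complex (42.2% and 44.7% over 64 and 38 reads). Clustered protocadherin genes, adhesion molecules of neurons, had 1 among 13 peaks, within the gamma cluster (51.5% and 41.8%). Homeobox cluster genes had 0 among 10. Housekeeping genes had 2 among 39, within RAB7A (35.9% and 39.3%) and near ACTB (57.9% and 45.5%, with background shares of 26.0% and 42.7%). The shares of the lists rest on so few peaks that they were not compared further.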

How the data were processed

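ATAC-Me libraries of 2 replicates of H9 cells were deposited as 1 CpG table each, without a header. Per CpG the authors deposited the methylated fraction of its reads, the count of its reads and, for some CpGs, a mark as altered. A single peak list, deposited for both replicates, gives each peak a score, a signal, the −log10 of its q-value and the offset of its summit from the peak start. The submitters' processing notes name hg38 (GRCh38) as the build and Trim Galore and Genrich among the tools. Not given in the sources used here are the mapper, the methylation caller, removal of duplicates and tool versions. Without molecular identifiers reads need not be separate molecules, and intervals cover only counting error. Failed conversion would read as methylation.

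Methylated reads were the fraction times the reads, whole within 0.001. Percentages are methylated reads over reads in a peak, per replicate, with the SD over 2 replicates. Uneven peaks were called by an F test of CpG effects on arcsine square root values, weighted by reads, with the CpG by replicate interaction as error, moderated by squeezeVar of limma 3.58.1 in R 4.3.3 and Benjamini-Hochberg adjusted at 0.05. The test was planned for all peaks with at least 4 CpGs of 10 reads. On simulated data it made false calls in peaks near 0%, so only peaks at 10% to 90% in both replicates were tested, a choice made after seeing the data. Gene starts are those that RefSeq's promoter table lists (GRCh38.p14, 15100 of 19122 autosomal protein-coding genes) and the 5′ end of those genes. The 32 sites within 1000 bp of an end of another protein-coding gene were not placed. Coordinates are counted from 1. Other steps used Python 3.11.15, numpy 2.4.6 and pandas 2.3.3.

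The sites and gene lists were chosen with earlier results of these data known. Sites were named by a rule: per gene position the 5 of highest signal, per shape the 4 with most reads in the shallower replicate, those within 5000 bp of a listed gene (at most 15 imprinted, at most 8 of another list by signal), and the 2 on each side of each limit. Some of the sites that the rule takes are not described further. Alternatives covered read and CpG minimums, the selection limits, weighting, altered CpGs, shape limits, distances, background and each replicate left out.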

Additional observations from a re-analysis of the deposited data

How the results depend on the processing

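The direction of the difference between edge and summit held under every alternative tried, with values of 16.3 points at within 25 bp and over 150 bp, 13.2 points at sites with under 10% background, and 13.46 to 13.52 points without a replicate. The number of half-methylated sites was 4420 and 1226 with at least 10 and 50 reads per peak, 809 and 4350 with limits of 40% to 60% and 20% to 80%, and 3849 to 4015 without a replicate. Uneven sites numbered 972 (55.2% of those tested, against 57.6% of all tested peaks) and 38 (73.1%, against 59.4%) with at least 5 and 20 reads per CpG, 123 (68.0%, against 67.0%) with at least 6 CpGs, 106 (23.2%, against 20.2%) with the peak's own error, 116 (25.4%, against 9.67%) with all peaks tested as first planned, and 239 (52.4%, against 47.8%) with an error trend on methylation that was added after seeing the data. The spread was 16.9 points with 5 reads per CpG and 12.7 points with at least 2 CpGs, also chosen after seeing the data. Without a replicate no shared spread exists. The spread within the remaining replicate, another measure, was 13.4 to 14.2 points. With an even limit of 15 points 55.5% of sites were even and 27.2% scattered; with an r2 limit of 0.7, 6.58% had a summit gradient and 56.8% were scattered; with at least 6 CpGs, 3.87% had a one-sided gradient and 56.4% were scattered. With at least 20 reads per CpG 16.9% of CpGs were under 20%, 81.1% at 20% to 80% and 2.04% over 80%, and without altered CpGs 80.2% were at 20% to 80%. Sites at gene starts were 2.65% at up to 500 bp and 5.39% at up to 2000 bp, 4.57% under a minimum of 50 reads and 5.78% for all annotated genes, which left 59.6% inside genes and 34.6% between them. Median methylation was 38.8% with 2 times the background taken off. Of the remaining alternatives, 47 moved a value by less than its spread or a count by less than 1.5 times. The cause of these shifts was not tested. Depth and the small number of CpGs limit the layout: 80.4% of the sites had fewer than 4 CpGs with 10 reads in each replicate.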

Other observations

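Half-methylated sites were spread over all autosomes, as 4.90% of the peaks with enough reads on chromosome 19 up to 11.1% on chromosome 13. Of the 2321, 125 had another half-methylated site within 10000 bp and 19 within 2000 bp. The same count is not given for other classes of peaks. As the sites are 7.34% of the peaks with enough reads, few such pairs are not read as a trait of theirs. Within 5 Mb of a chromosome end lay 13.7% of them, and 13.4% of the peaks at 10% to 30%, 17.5% of those over 70% and 11.8% of all other peaks.

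An intergenic site on chromosome 17 (chr17:26603645-26604350) had the strongest contrast between single CpGs at high depth among the named sites. It read 59.1% and 63.0% over 269 and 1335 CpG reads, with background shares of 0.652% and 0.595%. The CpG 97 bp before the summit was at 0% and 0.541% over 34 and 185 reads, and the CpG 55 bp past it at 85.2% and 82.5% over 54 and 234 reads. Its spread was 34.1 points over 9 CpGs (adjusted p = 5.32e-10, limma-moderated F test). Reads of near-identical copies elsewhere in the genome were not told apart here.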
